A study of Homo sapiens with 6 samples.

Results

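Small nucleolar RNA (snoRNA) host genes are spliced genes that carry snoRNAs in their introns. In this comparison they were the genes of the count table whose symbol was SNHG followed by a number, together with GAS5, ZFAS1, DANCR and EPB41L4A-AS1. The rule used names alone and no measured value, and it gave 32 of the 62438 genes. The RNA-seq libraries carry the label MDA-MB-453, the name of a breast cancer line of human origin. In the si-N6AMT1 group the cells received siRNA directed at N6AMT1, in the si-CN group a scrambled control, both at 10 nM and, by the labels, for 48 h, and each group had 3 libraries. All cells were of the same labelled line, carried no other stated change and received the same transfection reagent. The labels name triplicate cells and do not say whether these were separate cultures, so p-values measure the spread between these libraries, which may be technical.

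When a host transcript is spliced, the introns are released and trimmed to snoRNAs, while the joined exons are exported to the cytoplasm as a long non-coding RNA. Box C/D snoRNAs direct ribose methylation of ribosomal RNA, box H/ACA snoRNAs direct the change of uridine to pseudouridine, and scaRNAs do the same for spliceosomal RNAs in Cajal bodies. Many host transcripts are loaded by ribosomes over short open reading frames and then destroyed by nonsense-mediated decay (NMD), and several begin with a pyrimidine run as ribosomal protein mRNAs do. N6AMT1 is a methyltransferase that works with its partner TRMT112, and the translation termination factor eRF1, the product of ETF1, is a known protein substrate.

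The start of a host transcript is shown first because it is the sequence feature that host genes are known to share with ribosomal protein genes. Each line holds 40 bases, from 10 bases before to 30 bases from the annotated start of the GENCODE reference transcript onward, read 5′ to 3′ on the gene's strand in GRCh37. Capitals mark the longest run of a C followed by at least 4 pyrimidines that begins within 10 bases of the start on either side. The genes are 7 of the 9 that rose after si-N6AMT1, followed by SNHG1 and DANCR, which did not pass the test. SNHG1 and DANCR both have such a run, which was present in only 5 of the 18 host genes that did not pass.
GAS5 (chr1:173837098-173837137, minus strand): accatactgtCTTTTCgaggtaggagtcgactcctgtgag
ZFAS1 (chr20:47895169-47895208, plus strand): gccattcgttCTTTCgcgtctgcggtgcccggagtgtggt
SNHG29 (chr17:16342341-16342380, plus strand): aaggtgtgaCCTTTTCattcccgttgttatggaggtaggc
SNHG16 (chr17:74553847-74553886, plus strand): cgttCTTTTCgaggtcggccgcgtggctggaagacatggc
SNHG7 (chr9:139622607-139622646, minus strand): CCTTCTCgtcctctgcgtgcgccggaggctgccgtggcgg
SNHG15 (chr7:45026531-45026570, minus strand): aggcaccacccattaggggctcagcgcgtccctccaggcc
SNHG3 (chr1:28832482-28832521, plus strand): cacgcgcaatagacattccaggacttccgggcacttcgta
SNHG1 (chr11:62623365-62623404, minus strand): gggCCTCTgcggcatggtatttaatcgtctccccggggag
DANCR (chr4:53578658-53578697, plus strand): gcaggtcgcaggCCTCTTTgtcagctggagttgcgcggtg
GAS5 and ZFAS1 had the run at the annotated first base, whereas in SNHG16 and SNHG7 the marked run began 6 and 10 bases before. In SNHG7 a shorter run, cctct, followed the marked one and spanned the annotated start. SNHG15 and SNHG3 had no such run within 10 bases of the start.

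ZFAS1 is shown as an example of what a host gene carries. Its introns hold 3 box C/D snoRNAs of one family, given here 5′ to 3′ from GRCh37 with the letters of box C (TGATGA) and box D (CTGA) in capitals.
SNORD12C (chr20:47895477-47895565, plus strand): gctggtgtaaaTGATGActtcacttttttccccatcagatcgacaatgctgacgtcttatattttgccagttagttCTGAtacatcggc
SNORD12B (chr20:47896856-47896946, plus strand): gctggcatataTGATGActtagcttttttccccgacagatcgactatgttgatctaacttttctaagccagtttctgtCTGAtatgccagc
SNORD12 (chr20:47897220-47897309, plus strand): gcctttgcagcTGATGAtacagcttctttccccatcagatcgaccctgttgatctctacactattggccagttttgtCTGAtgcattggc
All 3 have box C near the beginning and box D near the end, which is the usual arrangement of the class. In RefSeq, 30 of the 32 host genes held at least 1 snoRNA or scaRNA gene within their span, and SNHG27 and SNHG28 held none. The total was 147, of which SNHG14 held 83, GAS5 11 and SNHG1 8. Only box C/D snoRNAs were found in 13 host genes, only box H/ACA in 11, only scaRNAs in 4 and both C/D and H/ACA in 2.

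The libraries held 19739247 to 21289740 counts each. Pairs of libraries within a group differed by more than counting noise, since chi-square divided by its degrees of freedom was 1.35 to 1.76, and it was 6.97 to 7.92 for pairs from different groups. The targeted gene N6AMT1 was lower in si-N6AMT1, with 60 to 72 counts per library compared with 135 to 141 in si-CN and a log2 fold change of -1.10 (SE 0.119, FDR = 3.65e-07 from edgeR's quasi-likelihood test, n = 3). Cell markers went in part against the label of the line, which is known as a luminal type. SPDEF had 1 to 6 counts in each library and KRT19 8 to 14, although KRT8, KRT18 and EPCAM were high. The other luminal markers listed were XBP1 at 1516 to 1651 counts per library, FOXA1 at 151 to 183 and GATA3 at 48 to 75. The basal keratins KRT5 and KRT17 reached 768 and 2848 counts per 1000000 (CPM, scaled by TMM) on average in si-CN, and KRT14 and VIM reached 111 and 632 CPM. Between groups, 2 luminal markers rose and 1 fell of 7 tested, and 3 of 5 basal and mesenchymal markers rose (KRT5, KRT14 and ZEB1, the last with adjusted p = 0.205 from DESeq2). KRT17 and VIM, at log2 fold changes of -0.02 and -0.03, did not pass the test. For comparison, 9.78% of all 17320 tested genes rose and 11.5% fell. Among genes with at least 30 CPM, which KRT5, KRT14, KRT17 and VIM reached, these shares were 16.6% and 22%. Summed luminal markers were at 1508 to 1527 CPM in si-N6AMT1 and 1453 to 1493 CPM in si-CN, and basal and mesenchymal markers at 4377 to 4467 CPM and 4335 to 4429 CPM. Of the markers of other cells, PTPRC, CD3E and ALB had 0 to 3 counts per library, COL1A1 was at 45.9 and 45.8 CPM on average and COL3A1 at 3.07 and 3.62 CPM, and the list summed to 47.7 to 50.8 CPM in si-N6AMT1 and 47.9 to 51.1 CPM in si-CN. The part of these markers in the host gene results was not tested. In RNA from many cells at once, more cells with a transcript and more transcript in each cell cannot be told apart.

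Host genes shifted upward by small amounts after si-N6AMT1. Of the 27 host genes with enough counts to test, 9 were higher, none was lower and 18 were not called at a false discovery rate (FDR) under 0.05 by edgeR's quasi-likelihood test. The 9 were SNHG16, SNHG7, SNHG15, SNHG12, SNHG6, GAS5, SNHG29, ZFAS1 and SNHG3, with log2 fold changes from 0.12 to 0.29, or rises of 8.55% to 22.7%. They made up 33.3% of the host genes tested, while 9.78% of all 17320 tested genes were called higher and 11.5% lower. At an unadjusted p under 0.05, 10 host genes were higher and 1, SNHG30, was lower, compared with 2671 and 2846 of all 17320 tested genes. DESeq2 and limma-voom also called no host gene lower. Log2 fold changes were above 0 in 22 of the 27, compared with 8812 of all 17320 genes tested. The median of the host genes was 0.10, compared with 0.0039 over all genes tested. In 9 host genes every si-N6AMT1 library was above every si-CN library, 8 of them among those called and SNHG19 besides, and over all genes tested this held for 16.8%. SNHG6 was the one called gene whose groups overlapped.

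**Figure D1:**
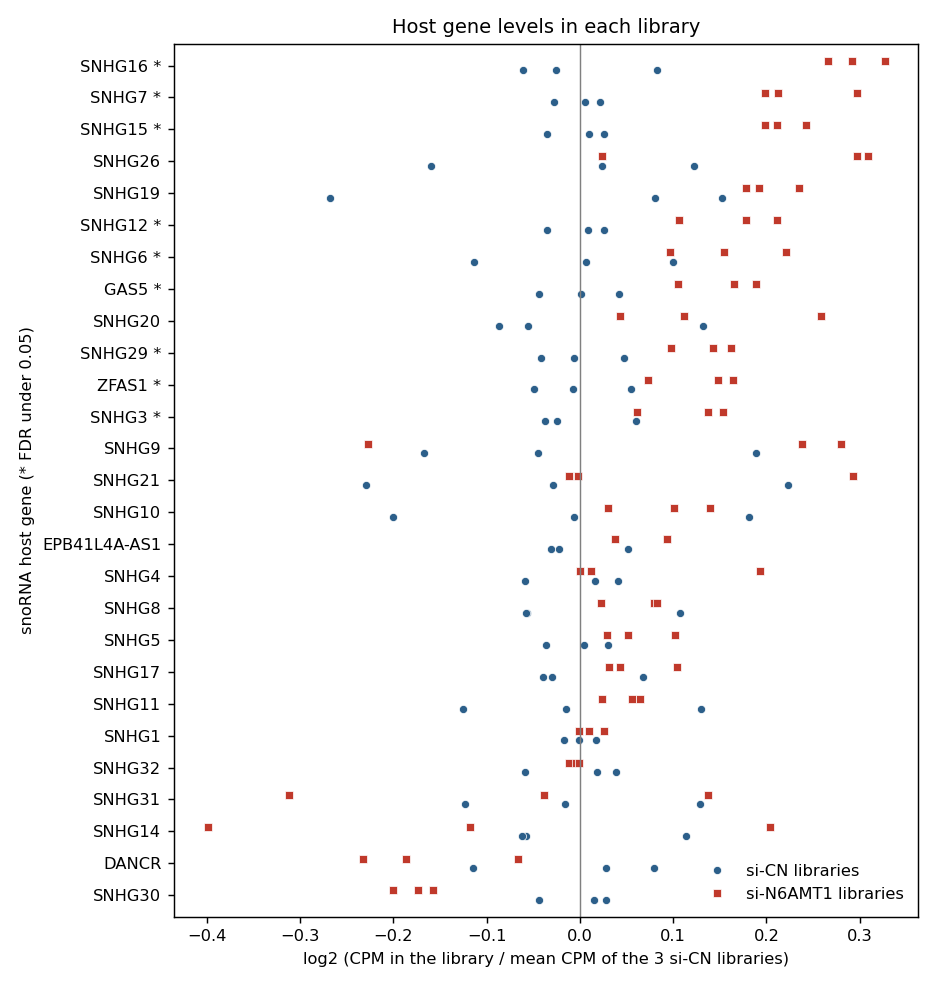
Level of each of the 27 tested host genes in each library, as log2 of its CPM over the mean CPM of the 3 si-CN libraries, with circles for si-CN, squares for si-N6AMT1 and an asterisk for FDR under 0.05. The squares of SNHG16, SNHG7 and SNHG15 stand clear to the right of all circles, SNHG1 and SNHG32 lie near 0 in both groups, and SNHG30 is the only gene with all squares to the left of all circles.

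SNHG16 had the smallest FDR and the highest log2 fold change of the host genes. It lies on chromosome 17 (chr17:74553809-74667067, plus strand, GRCh37) and carries SNORD1A, SNORD1B and SNORD1C, which are C/D snoRNAs. In si-N6AMT1 it was at 94.9, 90.95 and 92.6 CPM (replicates 1 to 3), and in si-CN at 80.1, 72.5 and 74.3 CPM. The lowest si-N6AMT1 library was above the highest si-CN library. Group means were 92.8 ± 1.98 and 75.7 ± 3.97 CPM (SD, n = 3), with a log2 fold change of 0.29 (SE 0.0352, FDR = 1.43e-06 from edgeR).

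SNHG7 (chr9:139615818-139622636, minus strand) hosts the H/ACA snoRNAs SNORA17A and SNORA17B. It was at 92.8, 93.7 and 99.4 CPM in si-N6AMT1 and at 79.3, 81.2 and 82.1 CPM in si-CN, with no overlap between groups. Means of 95.3 ± 3.58 and 80.9 ± 1.42 CPM (SD, n = 3) gave a log2 fold change of 0.24 (SE 0.0325, FDR = 9.51e-06 from edgeR). SNHG15 (chr7:45022618-45026560, minus strand) hosts SNORA9, also of the H/ACA class, and its transcript is known to be short-lived. Its libraries were at 122.4, 123.5 and 126.2 CPM in si-N6AMT1 and at 108.6, 107.4 and 104.1 CPM in si-CN, again without overlap. The means were 124 ± 1.91 and 106.7 ± 2.37 CPM (SD, n = 3), and the log2 fold change was 0.22 (SE 0.0278, FDR = 3.59e-06 from edgeR).

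GAS5, ZFAS1 and SNHG29 were the most abundant of the called host genes. GAS5 (chr1:173827697-173838020, minus strand) is the classical example of a host whose spliced RNA is stabilised when translation is blocked, and it holds 10 C/D snoRNAs and 1 H/ACA snoRNA among its 12 exons. It was at 451.7, 478.4 and 470.7 CPM in si-N6AMT1 and at 432.2, 420.2 and 407.2 CPM in si-CN. All si-N6AMT1 libraries were higher than all si-CN libraries, with means of 466.9 ± 13.8 and 419.9 ± 12.5 CPM (SD, n = 3) and a log2 fold change of 0.15 (SE 0.0252, FDR = 9.06e-05 from edgeR). The windows above show that GAS5 begins at the run of pyrimidines itself.

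ZFAS1 (chr20:47894715-47916137, plus strand) lies head to head with ZNFX1 and hosts the SNORD12 family shown above. Its levels were 303.4, 323.2 and 319.7 CPM in si-N6AMT1 and 299.7, 287.0 and 278.8 CPM in si-CN. The gap between the lowest si-N6AMT1 and the highest si-CN library was small, but the groups did not overlap. The log2 fold change was 0.13 (SE 0.0277, FDR = 0.0014 from edgeR), with means of 315.4 ± 10.6 and 288.5 ± 10.5 CPM (SD, n = 3). SNHG29 (chr17:16342081-16383563, plus strand) carries the C/D snoRNAs SNORD49A, SNORD49B and SNORD65. Libraries of si-N6AMT1 were at 358.7, 375.3 and 370.3 CPM and those of si-CN at 346.5, 333.8 and 325.7 CPM, without overlap. Its log2 fold change was 0.14 (SE 0.025, FDR = 0.000345 from edgeR), from means of 368.1 ± 8.53 and 335.3 ± 10.5 CPM (SD, n = 3).

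SNHG12, SNHG6 and SNHG3 were called with larger FDR values, and none of the 3 was called by DESeq2. SNHG12 (chr1:28905050-28909644, minus strand) holds SNORA16A, SNORA44, SNORA61 and SNORD99, so that it has both snoRNA classes. It was at 36.5, 39.2 and 38.3 CPM in si-N6AMT1 and at 33.1, 34.5 and 34.1 CPM in si-CN, with a log2 fold change of 0.17 (SE 0.0444, FDR = 0.00864 from edgeR; adjusted p = 0.109 from DESeq2). The groups did not overlap, and without si-N6AMT1 replicate 2 the FDR was 0.0568.

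SNHG6 lies on chromosome 8 and hosts SNORD87, a C/D snoRNA. Its si-N6AMT1 libraries were at 64.0, 69.7 and 66.6 CPM and its si-CN libraries at 64.1, 60.1 and 55.3 CPM. The lowest si-N6AMT1 library and the highest si-CN library were nearly equal, so the groups overlapped by this pair alone. The log2 fold change was 0.16 (SE 0.0447, FDR = 0.0117 from edgeR; adjusted p = 0.0653 from DESeq2), and it was not called without si-CN replicate 3 (FDR = 0.116) or si-N6AMT1 replicate 2 (FDR = 0.0775).

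SNHG3 (chr1:28832492-28837404, plus strand) hosts SNORA73A and SNORA73B, H/ACA snoRNAs that act in the processing of ribosomal RNA. It was at 58.8, 55.7 and 59.4 CPM in si-N6AMT1 and at 55.7, 52.0 and 52.5 CPM in si-CN. The lowest si-N6AMT1 library exceeded the highest si-CN library only in the second decimal place. Its log2 fold change was 0.12 (SE 0.039, FDR = 0.0332 from edgeR; adjusted p = 0.193 from DESeq2). SNHG3 was not called without si-CN replicate 2 or 3, or without si-N6AMT1 replicate 1 or 3, where FDR ran from 0.0901 to 0.14. It starts 63 bases from RCC1 on the same strand, so counts could be divided wrongly between them.

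SNHG1 had the most counts of all host genes in si-CN and was not called. It lies on chromosome 11 (chr11:62619450-62623425, minus strand) and hosts 8 C/D snoRNAs, among them SNORD25 to SNORD31. Its si-N6AMT1 libraries were at 457.5, 454.2 and 462.6 CPM and its si-CN libraries at 460.0, 449.1 and 454.3 CPM. The groups overlapped, with a log2 fold change of 0.01 (SE 0.0209, FDR = 0.767 from edgeR). This standard error was the smallest of the 27 tested host genes. The log2 ratio of GAS5 to SNHG1, which does not depend on how libraries are scaled, was -0.02, 0.08 and 0.03 in si-N6AMT1 and -0.09, -0.10 and -0.16 in si-CN. SNHG32, which hosts SNORD48 and SNORD52, was not called either, at 176.0 to 177.4 CPM in si-N6AMT1 and 170.4 to 182.3 CPM in si-CN (log2 fold change -0.0049, SE 0.0267).

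**Figure D2:**
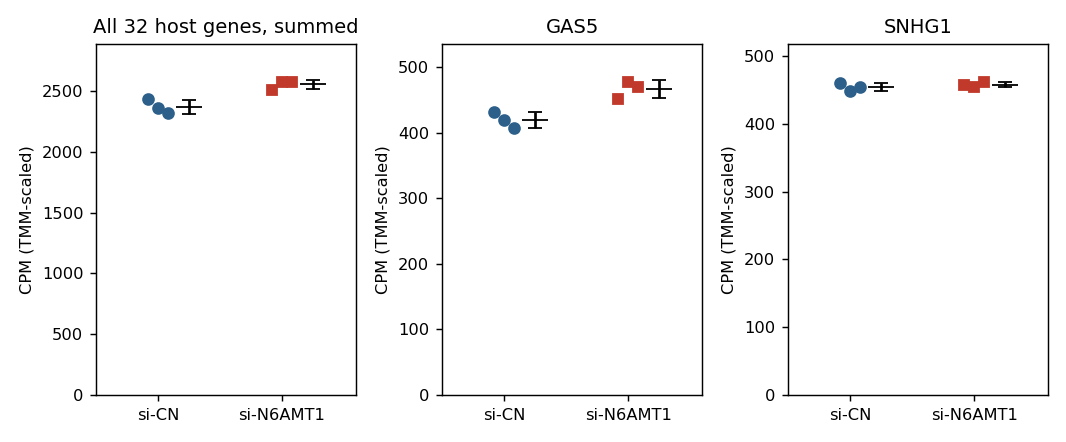
CPM of all 32 host genes summed, of GAS5 and of SNHG1 in each library, with points for libraries and bars for the mean ± SD of 3 libraries. The summed host genes and GAS5 are higher in every si-N6AMT1 library than in any si-CN library, while the SNHG1 points of both groups overlap.

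Summed over all 32, host genes reached 2511.5, 2579.7 and 2577.5 CPM in si-N6AMT1 and 2436.9, 2358.6 and 2320.1 CPM in si-CN. The groups did not overlap, and their means of 2556.2 ± 38.8 and 2371.9 ± 59.5 CPM (SD, n = 3) differed 1.08-fold. This was 0.252% to 0.258% of all counts in si-N6AMT1 and 0.231% to 0.241% in si-CN, and the 5 most abundant host genes gave 69.6% to 70.8% of it. Summed CPM of the other 2885 tested lncRNA genes was higher as well, at 18800 to 19470 in si-N6AMT1 and 17380 to 17790 in si-CN, while the mitochondrial genome's share of counts was lower, at 2.91% to 3.11% and 3.64% to 3.86%. The part of these shifts in the host gene results was not tested.

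DANCR and EPB41L4A-AS1, which the rule added by name, were not called. DANCR (chr4:53578492-53589790, plus strand) hosts SNORA26 and is known as a lncRNA that holds back differentiation. Its si-N6AMT1 libraries were at 11.6, 10.7 and 10.3 CPM and its si-CN libraries at 12.8, 12.4 and 11.2 CPM, which overlapped (log2 fold change -0.16, SE 0.0814, FDR = 0.187 from edgeR). EPB41L4A-AS1 (chr5:111496223-111500515, plus strand) hosts SNORA13. It was at 37.6, 39.1 and 39.1 CPM in si-N6AMT1 and 37.9, 35.9 and 36.1 CPM in si-CN, also with overlap (log2 fold change 0.08, SE 0.043, FDR = 0.241 from edgeR). SNHG30, the host of SNORD7, was at 13.5, 13.4 and 13.1 CPM in si-N6AMT1 and at 15.2, 14.6 and 15.4 CPM in si-CN. It was the single host gene with every si-N6AMT1 library below every si-CN library, which held for 3124 of all 17320 genes tested. Its log2 fold change of -0.18 (SE 0.0681, FDR = 0.069 from edgeR) missed the threshold.

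Of the other 13 uncalled host genes, 11 had log2 fold changes above 0 and 2, SNHG14 and SNHG31, below. These 13 leave out SNHG30, DANCR and SNHG32, which were below 0, and SNHG1 and EPB41L4A-AS1, which were above. Over all genes tested, 8812 of 17320 were above 0. SNHG17, host of 4 SNORA71 genes, had a log2 fold change of 0.06 (SE 0.034) at 87.5 ± 2.42 and 84.0 ± 3.49 CPM (SD, n = 3). SNHG5, host of SNORD50A and SNORD50B, was at 0.06 (SE 0.0388), and SNHG8, host of SNORA24, was at 0.06 (SE 0.0526). SNHG26 had the largest log2 fold change among uncalled host genes, 0.21 (SE 0.0983, FDR = 0.138 from edgeR), and passed the threshold only without si-N6AMT1 replicate 2 (FDR = 0.0419). SNHG19 followed at 0.21 (SE 0.12) from 88 to 120 counts per library. SNHG14, the long transcript that carries the SNORD115 and SNORD116 clusters of the imprinted region of chromosome 15, was at 80 to 121 counts per library and a log2 fold change of -0.09 (SE 0.136). Of the 5 host genes that were not tested, SNHG18 had no count in any library, and SNHG22, SNHG25, SNHG27 and SNHG28 had 0 to 10.

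**Figure D3:**
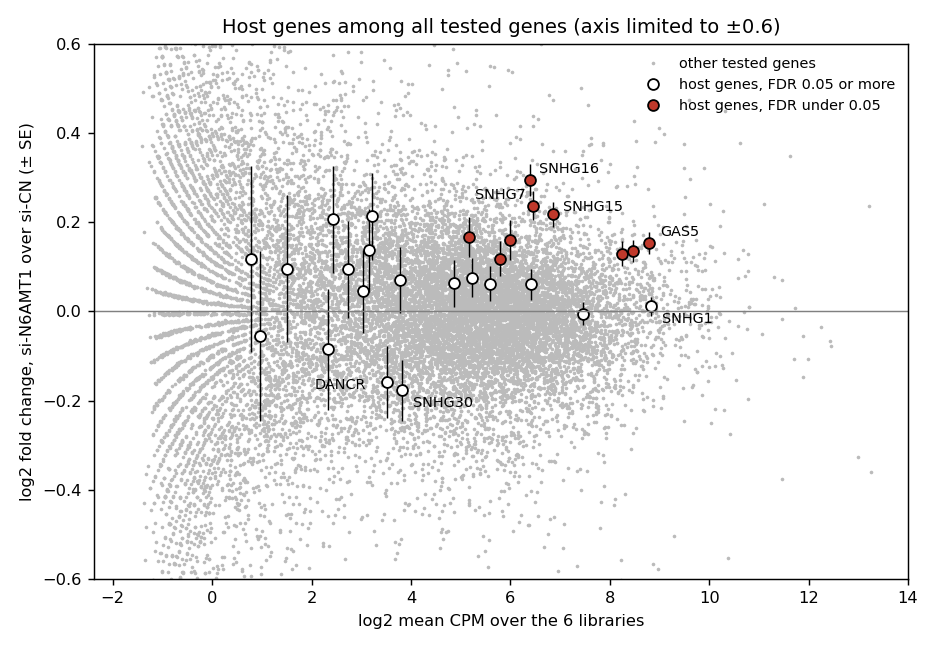
Log2 fold change of si-N6AMT1 over si-CN (± SE) against log2 of the mean CPM, with grey points for all other tested genes, open circles for uncalled host genes and filled circles for host genes with FDR under 0.05. All filled circles lie above 0 and to the right, at 5 or more on the horizontal axis, and the error bars widen to the left.

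The called host genes were the more abundant ones. Their median level in si-CN was 80.9 CPM, compared with 10.4 CPM for those not called, and their median SE was 0.0325 compared with 0.0873. With a limit of 30 CPM in the mean over all libraries, which was chosen after the values had been seen, 9 of 14 host genes (64.3%) were higher, while 16.6% of the 6828 genes at this level were. Below 30 CPM none of 13 was called by edgeR, DESeq2 or limma-voom, and 1 was higher and 1 lower at an unadjusted p under 0.05. Their median log2 fold change was 0.07, and 5.34% of all 10492 tested genes under 30 CPM were called higher. Divided by the length of the reference transcript, the highest levels in si-CN were 756.9 CPM per kb for SNHG29, 546.7 for GAS5 and 391.1 for SNHG1. With all annotated exons merged the order changed, to SNHG1 at 114.3 CPM per kb, SNHG32 at 98.5 and GAS5 at 85.1.

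Features of the host genes were counted beside these results as a description. Called host genes held a median of 3 snoRNA genes and 5 exons, and the others 1 and 4. At least 1 C/D snoRNA was in 6 of the 9 and at least 1 H/ACA snoRNA in 5, so both classes were among the genes that rose. The pyrimidine run shown above was present in 6 of the 9 called and in 5 of the 18 uncalled host genes. Over all tested host genes it was in 11 of 27 (40.7%), compared with 32.1% of all tested genes with a start, 32.2% of other tested lncRNA genes and 90.5% of ribosomal protein genes. The median log2 fold change was 0.13 for host genes with the run and 0.09 for those without. A match to these letters is not evidence of a working motif, and the start used by the cells was not measured.

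The snoRNAs themselves could hardly be read in these libraries, which were made from polyadenylated RNA. The count table held 161 identifiers with the name of a snoRNA within a host gene. Of these, 25 had any count, and all of them together had 692 counts over the 6 libraries. They were matched by name without regard to position, so same-named copies outside the host genes, as for SNORA26 and SNORD74, could be included. SNORA73B, SNORD104 and SNORA71B passed the filter on low counts. The counts of a host gene add up all its annotated transcripts, so fully spliced RNA was not measured apart from other forms. The differences in host gene counts therefore could not be set beside the mature snoRNAs.

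Genes that share a locus with a host gene were called about as often as genes in general. There were 36 such partners, overlapping a host gene or starting head to head within 1000 bases, for 24 host genes. Of the 27 tested, 2 were higher (7.41%) and 4 lower (14.8%), compared with 9.78% and 11.5% of all genes tested. ZNFX1, an RNA helicase gene next to ZFAS1, was higher (log2 fold change 0.23, SE 0.0238, FDR = 2.01e-07 from edgeR), and RCC1, beside SNHG3, was higher at the edge of the threshold (0.10, SE 0.0355, FDR = 0.0497, and adjusted p = 0.245 from DESeq2). Lower were BARD1 with SNHG31 (log2 fold change -0.26), RPS2 with SNHG9 (-0.16), MYO5B with SNHG22 (-0.17, adjusted p = 0.252 from DESeq2) and, with SNHG4, the MATR3 identifier ENSG00000280987 (-0.39). That identifier was at 31.1 CPM in si-N6AMT1 and 41.0 CPM in si-CN. The other MATR3 identifier, ENSG00000015479, holds most of the gene's counts, at 319.2 and 313.0 CPM, and was not called (log2 fold change 0.03, SE 0.0217, FDR = 0.414 from edgeR), and the division of reads between them is uncertain. Of those 4 neighbouring host genes, SNHG22 was not tested and the others were not called. ZBTB37, which starts head to head with GAS5, had a log2 fold change of 0.03 (SE 0.0747). The strand setting of the read counting is not given in the sources used here, so reads of genes that overlap on opposite strands cannot be told apart with certainty.

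**Figure D4:**
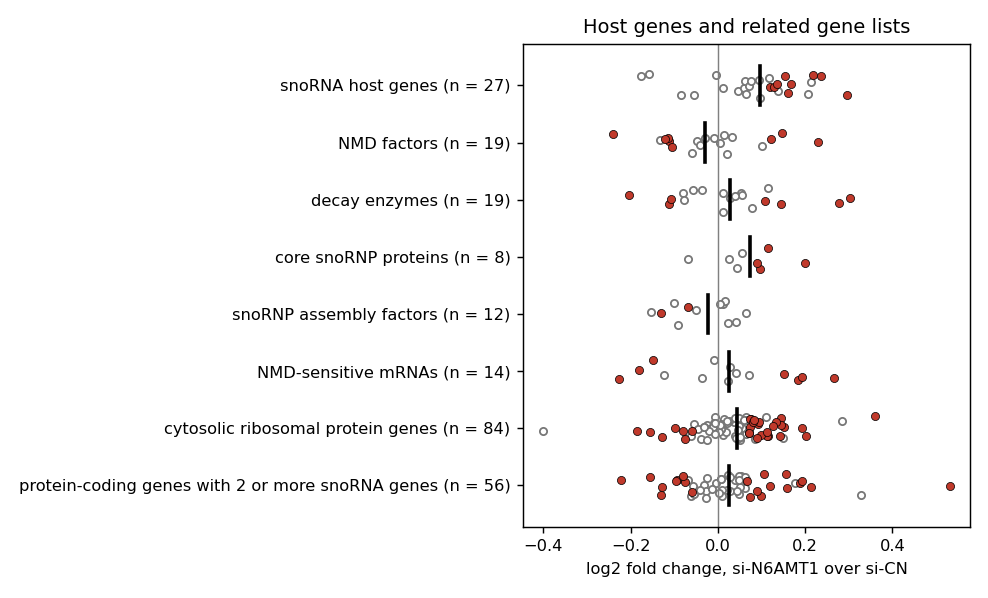
Log2 fold change of si-N6AMT1 over si-CN for every tested gene of the host genes and 7 related lists, with filled points for FDR under 0.05, open points for the others and a black line at each median. No filled host gene lies to the left of 0, while filled points lie on both sides of 0 in NMD factors, decay enzymes, NMD-sensitive mRNAs, ribosomal protein genes and protein-coding snoRNA hosts.

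NMD factors, the proteins that recognise and destroy transcripts with an early stop, were called about as often as genes with at least 30 CPM. Of 19 tested, 3 were higher (15.8%) and 5 lower (26.3%), compared with 16.6% and 22% of all genes with at least 30 CPM, and the median was -0.03 on the log2 scale. Most of the 19 reached this level. DHX34, which is among those higher, was below it at 28.6 CPM in si-N6AMT1 and 24.5 CPM in si-CN. Of all genes under 30 CPM, 5.34% were higher. On the log2 scale RNPS1 and PNRC2 rose by 0.15 and 0.12, and the helicase gene DHX34 rose by 0.23 (adjusted p = 0.0502 from DESeq2). NBAS fell by 0.24, CASC3 of the exon junction complex fell by 0.12 and SMG1, the kinase of UPF1, fell by 0.10 on the log2 scale. The other 2 called lower were UPF2 (-0.11, FDR = 0.0336 from edgeR) and UPF3B (-0.11, FDR = 0.0307 from edgeR), the partners of UPF1 in recognition, which DESeq2 did not call (adjusted p = 0.199 and 0.111). UPF1 was at 117.8 ± 1.72 and 120.3 ± 3.69 CPM (SD, n = 3) and did not pass the test. Of 14 mRNAs known to be NMD targets, 4 were higher (28.6%) and 3 lower (21.4%), and DESeq2 called 2 and 3. SLC7A11, the cystine transporter, MAP3K14 and ATF3 (adjusted p = 0.067 from DESeq2) rose by 0.19, 0.27 and 0.15, and PPP1R15A, GADD45B and IFRD1 fell by 0.18, 0.23 and 0.15 on the log2 scale. The median log2 fold change was 0.03.

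Among 19 decay enzymes, 4 were higher (21.1%) and 3 lower (15.8%), where DESeq2 called 1 and 2, and the median was 0.03 on the log2 scale. For comparison, 16.6% of all genes with at least 30 CPM, a level that most of these enzymes reached, were higher and 22% lower. XRN1, the exonuclease that digests cytoplasmic RNA from its cap end, fell by 0.20 (SE 0.0383, FDR = 0.000386 from edgeR), and the nuclease gene DIS3 fell by 0.11 and the decapping gene DCP1A by 0.11 on the log2 scale (adjusted p = 0.122 from DESeq2 for DCP1A). EXOSC4 of the exosome rose by 0.30 on the log2 scale. EXOSC7 of the exosome rose by 0.14 and DCP1B by 0.28, and DESeq2 called neither (adjusted p = 0.151 and 0.0809). In the list of translation termination partners, TRMT112 rose by 0.14 on that scale (SE 0.0299, FDR = 0.00198 from edgeR) and ETF1 fell by 0.10 on the log2 scale (SE 0.0268, FDR = 0.00673 from edgeR), a call that DESeq2 did not make (adjusted p = 0.0617). GSPT1 and ABCE1 were not called, and GSPT2 had no count.

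Core snoRNP proteins, which bind mature snoRNAs and carry out the modification, gave 4 higher (50%) and 0 lower of 8. For comparison, 16.6% of all genes with at least 30 CPM, a level that all but GAR1 reached, were higher and 22% lower. The median of the core proteins was 0.07 on the log2 scale. None was lower at an unadjusted p under 0.05 or by DESeq2 or limma-voom, and DESeq2 called 1 of the 8 higher, FBL. FBL, the C/D methyltransferase, was at 197.2 ± 1.32 CPM in si-N6AMT1 and 184.6 ± 1.30 CPM in si-CN (SD, n = 3), a log2 fold change of 0.10 (SE 0.0233, FDR = 0.00437 from edgeR). SNU13, which binds box C/D RNAs, rose by 0.11, and DKC1, the pseudouridine synthase of the H/ACA class, by 0.09 on the log2 scale. GAR1 rose too, while NOP58 had a log2 fold change of -0.07 (SE 0.0332, FDR = 0.166 from edgeR). Of 12 factors that assemble these particles, 2 were lower, ZNHIT6 at a log2 fold change of -0.13 and NOLC1 at -0.07, and 10 were not called. At an unadjusted p under 0.05 from edgeR, none of the 12 was higher and 5 were lower, compared with 2671 and 2846 of all 17320 genes tested. DESeq2 called none of the 12 in either direction.

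Ribosomal protein genes, whose mRNAs begin with the same kind of pyrimidine run, were higher in 23 and lower in 7 of 84 tested, or 27.4% and 8.33%, and DESeq2 called 15 and 6. For comparison, 16.6% of all genes with at least 30 CPM, a level that most of them reached, were higher and 22% lower. The median log2 fold change of ribosomal protein genes was 0.04. RPL22L1, RPL37 and RPS29 rose by 0.36, 0.20 and 0.19, whereas RPLP0, RPS2 and RPSA fell by 0.19, 0.16 and 0.13 on the log2 scale. Their summed levels overlapped, at 40340 to 42240 CPM in si-N6AMT1 and 39920 to 42230 CPM in si-CN. Of 56 protein-coding genes with at least 2 snoRNA genes within them, 12 were higher (21.4%) and 9 lower (16.1%), where DESeq2 called 6 and 7, and the median was 0.03 on the log2 scale. HSPA8, EIF4A2 and RABGGTB rose by 0.19, 0.16 and 0.19, and HSPA9, RPS2 and RPSA fell by 0.22, 0.16 and 0.13 on the log2 scale. RPS2, RPSA and further ribosomal protein genes are in both this list and the ribosomal protein list. Of 9 tested lncRNA genes outside the naming rule that hold a snoRNA gene, THAP9-AS1 was higher (0.11, SE 0.0294, FDR = 0.0121 from edgeR) and the rest were not called, and DESeq2 called none (adjusted p = 0.116 for THAP9-AS1). Among the other 2885 tested lncRNA genes, 3.6% were higher and 1.42% lower, and the median was 0.03 on the log2 scale. These lncRNA genes were not matched to the host genes by level, on which calls depended. Of all tested genes, 16.6% of those with at least 30 CPM and 5.34% of those under 30 CPM were higher.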

How the data were processed

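The authors made libraries with a stranded mRNA kit and sequenced both ends. They trimmed reads with Trim Galore, quantified transcripts of GENCODE v33 (the release named in the study's methods, on hg19) with kallisto v0.46.0 and added up the transcripts of a gene. What they deposited are estimated counts (expected counts) as whole numbers, not normalized, and the strand option is not given in the sources used here. Groups and replicate numbers came from the sample labels, and the deposited columns were matched to samples by name.

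The test was edgeR's quasi-likelihood fit (edgeR v4.0.16, R v4.3.3) on all 6 libraries with TMM scaling and no covariates, run on the 17320 genes that filterByExpr kept at a minimum count of 10. Benjamini-Hochberg adjustment over these genes gave the FDR. For SE, the size of a log2 fold change was divided by the root of its F statistic. Fold changes are si-N6AMT1 over si-CN. The procedure was tested on simulated counts. At 1 CPM a library holds about 20 counts, so scarce genes carry wide errors, and these errors cover the spread between libraries only.

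Of the 62438 identifiers, 62149 were matched to a symbol, and the other 289 (at most 0.137% of a library's counts) were kept in the tests. PECAM1, a planned marker, had no match. A few genes, 2 markers among them, and 1 sequence are not reported here, and values over marker genes leave those markers out. Positions, exons and sequences came from GENCODE v44 on GRCh37, the build of hg19. That annotation lacks many snoRNAs, so snoRNA genes within hosts were counted from RefSeq spans on GRCh38.p14, without regard to strand. Host genes and gene lists were chosen with earlier results of these data known. Every tested host gene could be named. Full values are given for called genes and for GAS5, ZFAS1, DANCR, EPB41L4A-AS1 and SNHG1, and for lists the 3 genes with the smallest FDR in each direction. SNHG30, SNHG26, SNHG32, UPF1, UPF2, UPF3B, GAR1, NOP58 and the other MATR3 identifier were singled out after their values had been seen.

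The alternatives tried were no expression filter, RLE size factors, DESeq2 v1.42.0, limma-voom (limma v3.58.1), the replicate number as a block, each library left out in turn and merged exon lengths.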

Additional observations from a re-analysis of the deposited data

How the results depend on the processing

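The 9 host genes called by edgeR were the same 9 under RLE size factors, limma-voom, no expression filter and the replicate block, and DESeq2 called 6 of them and no other, with an adjusted p for 22 of the 27. Leaving out 1 library gave 7 to 9 called host genes, with 7 without si-CN replicate 3. SNHG16, SNHG7, SNHG15, GAS5, SNHG29 and ZFAS1 were called under all 11 alternatives. The median log2 fold change of host genes ran from 0.0794 to 0.109, the fold of the summed host CPM from 1.07 to 1.09, and N6AMT1 from -1.18 to -1.04 with a library left out, while DESeq2 gave N6AMT1 no adjusted p. In the 6 fixed lists 30 genes were called in all (16 higher, 14 lower), compared with 15 under DESeq2 (7 and 8) and 19 to 29 with 1 library left out, the lowest without si-CN replicate 3. The cause was not tested. Over all genes DESeq2 called 796 higher and 1139 lower, compared with 1694 and 1993. Merged exon lengths moved the median level of tested host genes from 16.1 to 7.94 CPM per kb, since merged exons are longer. With 1 library left out, 5 uncalled host genes changed sign. Their log2 fold changes ran from -0.0136 (without si-CN replicate 1) to 0.118 for SNHG11, from -0.0328 to 0.0147 (positive without si-CN replicate 1 or 2, at 0.0147 and 0.0040) for SNHG32, from -0.255 to 0.0522 (positive without si-N6AMT1 replicate 3) for SNHG14, from -0.164 to 0.0557 (positive without si-N6AMT1 replicate 1 or si-CN replicate 1, at 0.0557 and 0.0129) for SNHG31, and from -0.0117 to 0.227 (negative without si-N6AMT1 replicate 3 or si-CN replicate 1, at -0.0117 and -0.0053) for SNHG21.

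Replicate numbers did not pair the libraries. Deviations of same-numbered libraries correlated at -0.04, -0.04 and 0.01, and 2 of 6 libraries were closest to their own number. With the replicate block 9 host genes and 28 list genes were called, and all genes gave 1522 higher and 1804 lower. Standard errors were wider in scarce host genes, and the part of depth in their missing calls was not tested.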
